A study of Mus musculus with 6 samples.

Results

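The interferon regulatory factors (IRFs) are a family of transcription factors. The members described here are the rows of the deposited RNA-seq table with the gene symbols Irf1, Irf2, Irf3, Irf4, Irf5, Irf7, Irf8 and Irf9, 8 of 21720 symbols, and all 8 passed the filter on low counts. The RNA came from subcutaneous tumours of H22, a mouse hepatocellular carcinoma cell line, grown in female BALB/c mice aged 6 to 8 weeks and labelled as wild type (WT). Mice of the control group received 0.5% carboxymethyl cellulose sodium (CMC-Na), the vehicle, and those of the luteolin group received 200 mg/kg luteolin, a plant flavonoid. Both groups were gavaged with 0.2 mL once a day for 21 days, starting when tumours had reached about 50 mm3, and each group gave 3 libraries. The question was how the tumour transcriptome differs under luteolin. Each library is whole tumour tissue, so H22 cells and the cells of the host contribute to every value, and fewer cells of a type cannot be told apart from less RNA per cell. The labels do not say that the 3 libraries of a group came from separate mice, so the p values below measure only the spread between these samples.

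IRF proteins share a DNA-binding domain that recognises GAAA repeats, the core of the interferon-stimulated response element (ISRE). IRF3, IRF5 and IRF7 lie at the end of the pathways that sense foreign or misplaced nucleic acid and switch on the type I interferon genes. IRF9 is the DNA-binding subunit of the complex that type I interferon activates, and IRF1 is induced by interferon-gamma and activates antigen presentation and guanylate-binding protein genes, while IRF2 can occupy the same sites and act as an antagonist. IRF4 and IRF8 act in lymphoid and myeloid cells with partners such as PU.1 and BATF proteins. In tumours, IRF transcripts can come from infiltrating leukocytes as well as from the tumour cells.

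The promoter stretches of 4 members are shown because interferon-gamma acts on its target genes through the gamma-activated site (GAS). RefSeq promoter windows on GRCm38.p6, which run from 250 bases before to 50 bases after a start site, were found for all 8 genes, 11 windows in all. Each line gives the 250 bases before the start site, 5′ to 3′ in the direction of the gene, with matches to 3 motifs in capitals. The motifs, searched on both strands, were GAS (TTCNNNGAA), the ISRE core (GAAANNGAAA) and the NF-kappaB consensus.
Irf1, chr11:53769764-53770013, plus strand: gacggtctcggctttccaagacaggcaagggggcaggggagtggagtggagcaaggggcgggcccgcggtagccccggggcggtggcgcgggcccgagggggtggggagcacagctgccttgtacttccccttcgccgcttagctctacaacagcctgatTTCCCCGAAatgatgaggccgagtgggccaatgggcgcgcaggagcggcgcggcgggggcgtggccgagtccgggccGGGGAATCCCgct
Irf2, chr8:46739495-46739744, plus strand: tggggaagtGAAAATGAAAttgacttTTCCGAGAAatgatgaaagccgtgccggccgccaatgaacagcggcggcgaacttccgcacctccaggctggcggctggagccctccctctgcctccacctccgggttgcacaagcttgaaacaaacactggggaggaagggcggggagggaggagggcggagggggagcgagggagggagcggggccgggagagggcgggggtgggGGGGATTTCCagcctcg
Irf8, chr8:120736108-120736357, plus strand: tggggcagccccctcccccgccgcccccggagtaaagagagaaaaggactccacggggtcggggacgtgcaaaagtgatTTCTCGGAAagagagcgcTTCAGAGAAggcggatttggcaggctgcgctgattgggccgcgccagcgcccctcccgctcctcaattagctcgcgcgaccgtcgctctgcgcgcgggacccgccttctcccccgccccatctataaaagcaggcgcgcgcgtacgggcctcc
Irf7, chr7:141266425-141266674, minus strand: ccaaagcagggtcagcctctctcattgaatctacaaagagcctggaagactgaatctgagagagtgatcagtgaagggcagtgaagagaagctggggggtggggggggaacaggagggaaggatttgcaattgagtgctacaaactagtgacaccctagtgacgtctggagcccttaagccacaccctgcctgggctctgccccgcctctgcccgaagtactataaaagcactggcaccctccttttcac
The Irf1 stretch holds a GAS from -90 to -82, counted from the start site, and an NF-kappaB match from -13 to -4. In Irf2 an ISRE core lies from -241 to -232, a GAS from -224 to -216 and an NF-kappaB match from -17 to -8. Irf8 carries a pair of GAS matches, from -171 to -163 and from -153 to -145. The Irf7 stretch, and the windows of Irf3, Irf4, Irf5 and Irf9, hold none of these letters. Irf1 and Irf8 each have another window, at a different start site, that holds none either. In all, 8 of the 11 windows hold none. Among all 32851 windows, 8.3% hold a GAS, 3.44% an ISRE core and 8.46% an NF-kappaB match. A match is a stretch of letters and does not show that a factor binds there.

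The libraries held 61081637 to 80442954 counts, and 14963 genes were tested. Pearson correlations between replicates of a group ranged from 0.892 to 0.969 on the log2 scale. Deviations of a library from the mean of all 6 followed GC content, with a Spearman correlation across genes between -0.52 and 0.43 and with both signs in each group. CPM here stands for counts relative to the library total after TMM normalization. Luteolin replicate 2 stands apart, since keratinocyte markers summed to 9076 CPM there, to 391 and 21.2 CPM in luteolin replicates 1 and 3, and to 14.4 to 18.6 CPM in the controls. Of the markers of hepatocytes and hepatoma cells, Afp (alpha-fetoprotein) and Trf (transferrin) were the most abundant, with log2 fold changes of -0.58 and -0.86. The summed level of that list was 369 to 428 CPM in the control group and 208 to 360 CPM in the luteolin group. The other 6 tested markers of the list had log2 fold changes above 0, the lowest unadjusted p being that of Gpc3 (2.73, edgeR adjusted p = 0.0665), and the median of all 8 was 1.61. Hnf4a, which encodes a defining hepatocyte factor, was at 0 in 3 of 6 libraries and at most at 20 counts.

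Irf4, Irf7 and Irf8, 3 of the 8 IRF genes, were up-regulated under luteolin by the study's threshold, which asks for a fold change over 2 and a p under 0.05 without adjustment, and 0 were down-regulated. Among all genes tested, 11.3% were up-regulated and 1.52% down-regulated by the same rule. With Benjamini-Hochberg adjustment of the edgeR quasi-likelihood p, 0 of the 8 were called at 0.05, against a background of 1.34% higher and 0.187% lower, and the lowest adjusted p was 0.0815. Without adjustment and without the fold limit the count was 4, Irf2 being the addition, where 14.0% of all genes were higher and 6.44% lower. DESeq2, the tool the paper names, called 4 at an adjusted p under 0.05 (Irf2, Irf4, Irf7 and Irf8, background 9.58%), limma's voom with sample quality weights called the same 4 (background 12.6%), and edgeR with an offset for GC content called Irf7 alone (background 3.60%). In 5 genes, Irf2, Irf4, Irf5, Irf7 and Irf8, every luteolin library lay above every control library, which 15.9% of all genes did. All 8 log2 fold changes were above 0, with a median of 0.71 against -0.01 over all genes, but with the GC content offset, which moved the median of all genes to -0.23, those of Irf1, Irf3 and Irf9 fell below 0. The family's median was 0.47 without luteolin replicate 2 and 0.41 with the GC content offset. All 8 genes also had their highest value in luteolin replicate 2, as did 34.0% of all genes. Without that library, 2 IRF genes were up-regulated at the study's threshold, where 7.52% of all genes were, and with the GC content offset 2 were, where 9.43% of all genes were.

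**Figure D1:**
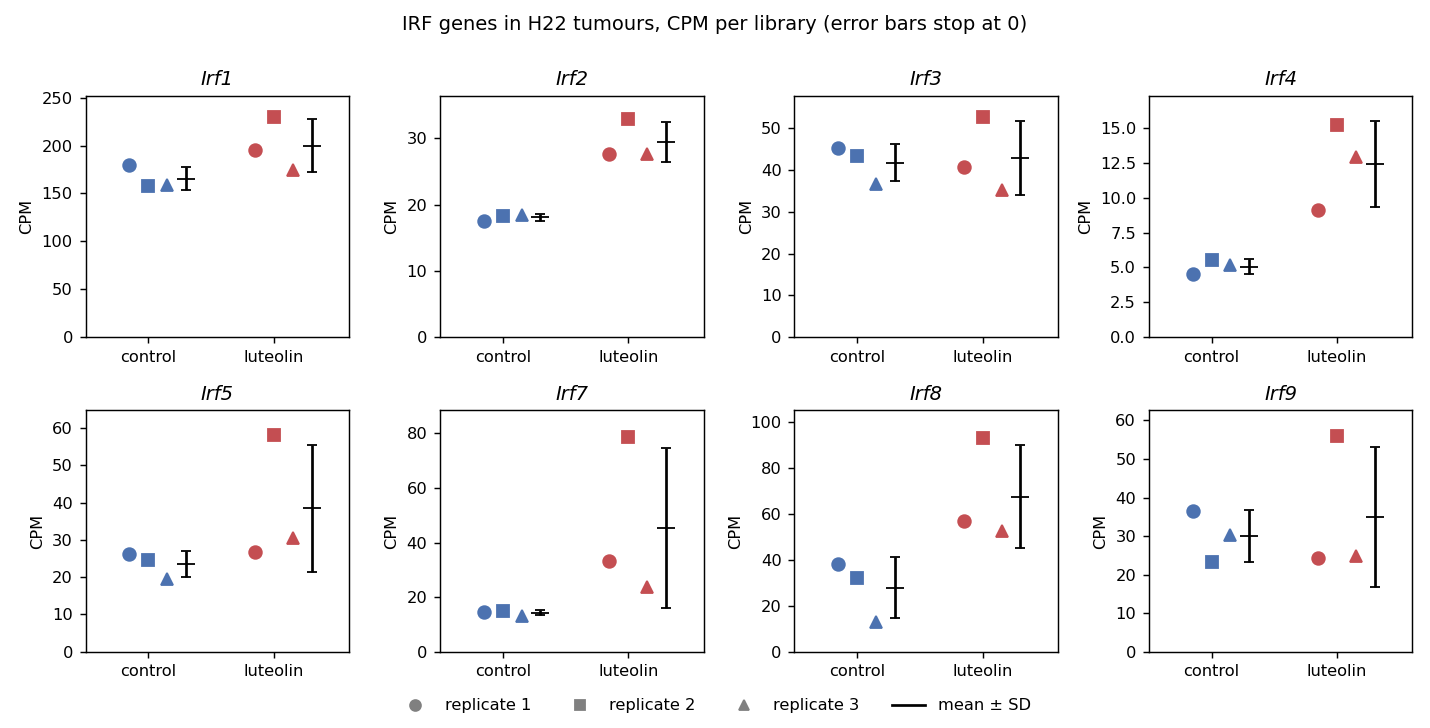
CPM of each IRF gene (y axis, linear, from 0) in the 3 control libraries (blue) and the 3 luteolin libraries (red), with symbols for the replicate number and bars for the mean ± SD of each group. In every panel the highest point is luteolin replicate 2, and in Irf2, Irf4, Irf7 and Irf8 the other 2 luteolin libraries also lie clear of the controls.

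Among the factors that switch on type I interferon genes, Irf7 was up-regulated at the study's threshold and Irf3 and Irf5 were not. Irf7, which interferon itself induces, had 14.7, 14.9 and 13.2 CPM in control replicates 1, 2 and 3. In luteolin replicates 1, 2 and 3 it had 33.4, 78.6 and 23.9 CPM. The groups did not overlap, and the means were 14.2 ± 0.916 and 45.3 ± 29.2 CPM (SD, n = 3 each). The log2 fold change was 1.67 (standard error 0.44, 95% interval 0.64 to 2.70, edgeR adjusted p = 0.108). Without luteolin replicate 2 it was 1.03, just past the fold of 2, and with the GC content offset 1.21 (edgeR adjusted p = 0.0403).

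Irf5, which acts downstream of endosomal Toll-like receptors in myeloid cells, had 26.3, 24.6 and 19.6 CPM in the control libraries and 26.9, 58.0 and 30.6 CPM in the luteolin libraries. The lowest luteolin value lay just above the highest control value. Its log2 fold change of 0.71 (standard error 0.32, 95% interval -0.04 to 1.47, edgeR adjusted p = 0.269) was 0.31 without luteolin replicate 2. Irf3, the constitutive factor that TBK1 phosphorylates, had 45.4, 43.3 and 36.8 CPM in the control libraries and 40.7, 52.7 and 35.3 CPM in the luteolin libraries. The groups overlapped throughout, and the log2 fold change was 0.04 (standard error 0.20, 95% interval -0.44 to 0.51, edgeR adjusted p = 0.946). That interval excludes a doubling and a halving of the level, and its sign turned under 4 of the alternatives tried.

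Of 19 sensors, adaptors and kinases upstream of IRF3, IRF5 and IRF7, 3 were up-regulated at the study's threshold and 0 were down-regulated, a share near the 11.3% of all genes tested. The list's median log2 fold change was 0.35 against -0.01 over all genes. With the GC content offset it was 0.05 against -0.23 over all genes. Without control replicate 3 the count was 5. The 3 were Ifih1, which encodes the RNA sensor MDA5 (log2 fold change 1.29, standard error 0.29), Traf3, an adaptor of the kinases that activate IRF3 and IRF7 (1.58, standard error 0.37), and Tlr9, an endosomal DNA receptor (1.89, standard error 0.57). Sting1, the adaptor of cytosolic DNA sensing, had a log2 fold change of 0.61 and Mavs, the adaptor of RNA sensing, one of -0.43. Ikbke, which encodes an IRF3 kinase, had between 53.7 and 83.3 CPM in all libraries.

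The type I interferon genes that these factors switch on were close to or at 0. Of 21 interferon genes in the table, 16 had 0 counts in every library, which allows up to 3 counts each, or up to 12 where 1 read pair is 4 units of the table. Ifnb1, the interferon-beta gene, was among them. Of the other 5 genes, 4 (Ifna16, Ifnab, Ifne and Ifnz) had at most 5 counts in any library. Ifng, which encodes the type II interferon of T and NK cells, had 11, 40 and 13 counts in control replicates 1, 2 and 3 and 292, 249 and 161 counts in luteolin replicates 1, 2 and 3. It was the only interferon gene that could be tested, with a log2 fold change of 3.39 (standard error 0.68, edgeR adjusted p = 0.0665).

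Irf9, which encodes the subunit that brings the type I interferon complex to DNA, differed by less than the spread between replicates. It had 36.6, 23.2 and 30.3 CPM in the control libraries and 24.3, 56.0 and 24.8 CPM in the luteolin libraries. Luteolin replicates 1 and 3 lay at the low end of the controls, and replicate 2 lay above every other library. The log2 fold change was 0.22 (standard error 0.37, 95% interval -0.65 to 1.10, edgeR adjusted p = 0.795), and -0.27 without luteolin replicate 2. Of 10 genes for interferon receptors, JAK kinases and STAT2, 2 were up-regulated at the study's threshold, where 11.3% of all genes were. The median log2 fold change was 0.33, and it was 0.16 without luteolin replicate 2. With the GC content offset it was 0.07 against -0.23 over all genes. The 2 were Jak1 (log2 fold change 1.10, standard error 0.26), a kinase of both interferon receptors, and Ifnlr1 (5.47, standard error 1.42), the epithelial interferon-lambda receptor. Ifnlr1 had at most 0.215 CPM in a control library and 1.37, 12.1 and 1.86 CPM in luteolin replicates 1, 2 and 3. Without control replicate 1 or luteolin replicate 2, and with the GC content offset, the list's count was 1. Stat2, whose product partners IRF9, had 40.6, 43.5 and 41.7 CPM in the control libraries and 59.3, 100.1 and 62.2 CPM in the luteolin libraries, so every luteolin library lay above the controls (log2 fold change 0.82, standard error 0.23, edgeR adjusted p = 0.125). Jak2, a kinase of the interferon-gamma receptor, had a log2 fold change of 0.45. The type I receptor genes Ifnar1 and Ifnar2 had log2 fold changes of -0.02 and 0.34.

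Genes with an ISRE, the element that IRF9 and its partners bind, were up-regulated in 9 of 21 cases at the study's threshold. Of these, 2 were called at an adjusted p under 0.05, and 0 genes of the list were down-regulated. Of all genes tested, 11.3% were up-regulated at the study's threshold and 1.34% were higher at an adjusted p under 0.05. The list's median log2 fold change was 0.85. Without luteolin replicate 2 the count at the study's threshold was 5, where 7.52% of all genes were called. With the GC content offset the count was 7, where 9.43% were called, and the median was 0.60 against -0.23 over all genes. The 2 at an adjusted p under 0.05 were Zbp1, which encodes a sensor of Z-form nucleic acid, and Oasl2, of the oligoadenylate synthetase family. Zbp1 went from 8.06, 12.9 and 10.7 CPM to 35.2, 65.7 and 32.0 CPM (log2 fold change 2.07, standard error 0.34, edgeR adjusted p = 0.0437). For Oasl2 the log2 fold change was 1.37 (standard error 0.23, edgeR adjusted p = 0.0469). Cmpk2, Oas3 and Ifit3 were also up-regulated, with log2 fold changes of 1.66, 1.36 and 1.56, whereas Bst2, which encodes tetherin, had 0.04.

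Irf1, the most abundant member per length, showed a small difference with overlapping groups, and Irf2 a larger one without overlap. Irf1 had 179, 158 and 159 CPM in control replicates 1, 2 and 3 and 195, 229.8 and 175 CPM in luteolin replicates 1, 2 and 3. The groups overlapped, since luteolin replicate 3 lay below control replicate 1, and the log2 fold change was 0.27 (standard error 0.16, 95% interval -0.10 to 0.64, edgeR adjusted p = 0.382). Irf2 had 17.5, 18.3 and 18.5 CPM in the control libraries, the smallest spread of the family relative to its mean, and 27.7, 33.0 and 27.7 CPM in the luteolin libraries. Every luteolin library lay well above the controls. The means were 18.1 ± 0.509 and 29.4 ± 3.07 CPM (SD, n = 3 each), and the log2 fold change of 0.70 stayed short of the fold of 2 (standard error 0.17, 95% interval 0.30 to 1.11, edgeR adjusted p = 0.0968). With each library left out in turn it stayed between 0.63 and 0.74. DESeq2 gave Irf2 an adjusted p of 0.0014 and voom 0.0102. For Irf1 the adjusted p was 0.423 with DESeq2 and 0.0779 with voom.

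Of 20 IRF1-dependent genes of the interferon-gamma response, 16 were up-regulated at the study's threshold and 0 were down-regulated. Among all genes tested, 11.3% were up-regulated and 1.52% down-regulated by the same rule. Of the 16, 6 were called at an adjusted p under 0.05, where 1.34% of all genes were higher. The median log2 fold change was 1.85. Without luteolin replicate 2 the count at the study's threshold was 15, where 7.52% of all genes were called. Cd274, which encodes the checkpoint ligand PD-L1, had 25.5, 31.5 and 34.1 CPM in the control libraries and 121, 102 and 111 CPM in the luteolin libraries (log2 fold change 1.87, standard error 0.17, edgeR adjusted p = 0.0292). Nos2, the inducible nitric oxide synthase of activated macrophages, had 5.27, 14.3 and 9.01 CPM against 149.6, 81.4 and 133.7 CPM, and its log2 fold change was 3.68 (standard error 0.43, edgeR adjusted p = 0.0331). Gbp3 and Gbp5, which encode guanylate-binding proteins, had log2 fold changes of 1.26 and 1.97, and Nlrc5, the activator of MHC class I genes, one of 2.23. Psmb10, which encodes an immunoproteasome subunit, had -0.02. Of the 20 genes, 17 had a log2 fold change above the upper bound of Irf1's own 95% interval (0.64), and 12 had their own lower bound above it. Many other genes also lay past that bound, among them Irf2 at 0.70, and 79.0% of all tested genes lay below Irf2. The shares of all genes past Irf1's upper bound, by fold change or by lower bound, were not computed. The 17 and the 12 therefore have no background here. The bound is that of 1 gene, and whether the list rose more than Irf1 was not tested.

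**Figure D2:**
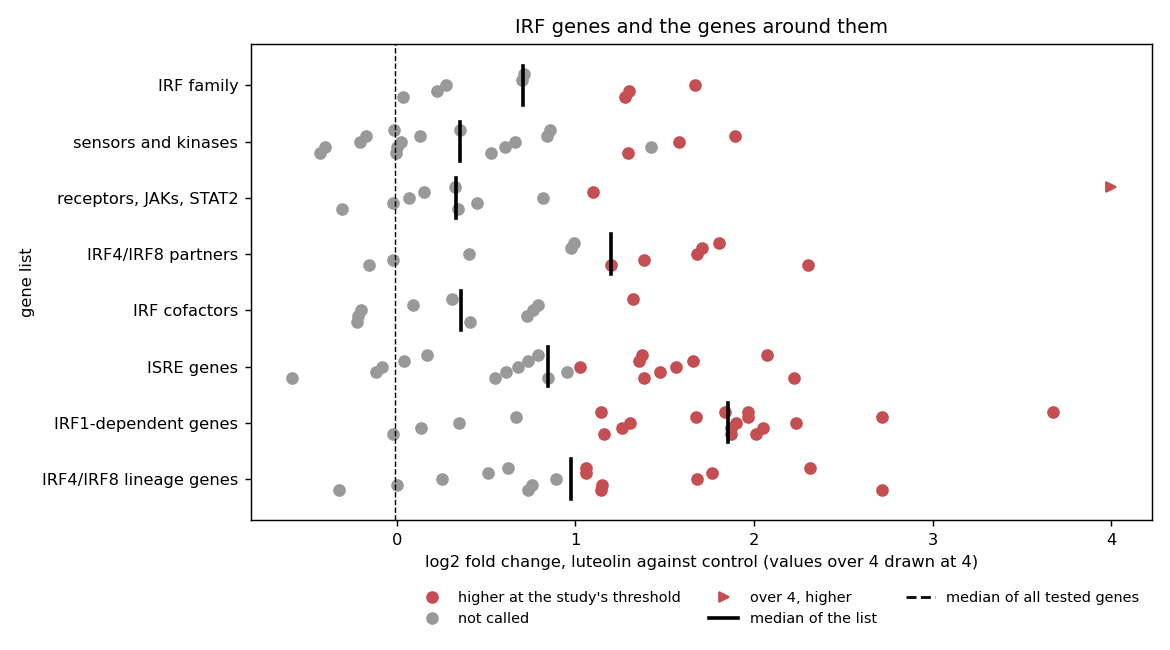
Log2 fold change of each tested gene (x axis, luteolin against control, values over 4 drawn at 4 as arrowheads) in the IRF family and in 7 lists of genes around it (y axis), with red for genes up-regulated at the study's threshold, grey for the others, a black bar for each list's median and a dashed line at the median of all tested genes. The IRF1-dependent genes lie farthest to the right, with a median of 1.85 against 0.71 for the IRF family (1.38 and 0.47 without luteolin replicate 2).

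Both lineage factors were up-regulated at the study's threshold. Irf4, a factor of plasma cells, activated T cells and alternatively activated macrophages, had 4.49, 5.51 and 5.16 CPM in control replicates 1, 2 and 3. In luteolin replicates 1, 2 and 3 it had 9.13, 15.2 and 12.9 CPM, so the groups were well apart. The means were 5.06 ± 0.519 and 12.4 ± 3.09 CPM (SD, n = 3 each), and the log2 fold change was 1.30 (standard error 0.29, 95% interval 0.61 to 1.98, edgeR adjusted p = 0.0815). With each library left out in turn it stayed between 1.14 and 1.48, past the study's threshold each time, whereas voom gave 0.91.

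Irf8, which directs monocyte and dendritic cell development, had 38.3, 32.2 and 12.8 CPM in the control libraries and 56.6, 93.1 and 52.3 CPM in the luteolin libraries. Control replicate 3 was far below the other 2 controls, and the groups did not overlap. The means were 27.8 ± 13.3 and 67.3 ± 22.4 CPM (SD, n = 3 each), and the log2 fold change was 1.28 (standard error 0.43, 95% interval 0.26 to 2.29, edgeR adjusted p = 0.170). It was 0.93 without control replicate 3 and 0.99 without luteolin replicate 2, short of the fold of 2 in both cases.

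Among 11 genes for DNA-binding partners of IRF4 and IRF8, 6 were up-regulated at the study's threshold and 0 were down-regulated. Of all genes tested, 11.3% were up-regulated by this rule. The list's median log2 fold change was 1.20. Without luteolin replicate 2 the count was 4, where 7.52% of all genes were called, and the median was 0.71. With the GC content offset the count was also 4, where 9.43% of all genes were called. The median was then 0.86 against -0.23 over all genes. Spi1, which encodes PU.1, had 15.9, 12.6 and 10.7 CPM in the control libraries and 35.2, 64.2 and 26.0 CPM in the luteolin libraries (log2 fold change 1.68, standard error 0.36). Batf2, Batf3 and Ikzf3 had log2 fold changes of 2.30, 1.80 and 1.71. That of Bcl6, which encodes a transcriptional repressor expressed in germinal centre B cells, was 1.20. Etv6 had -0.02. Of 16 lineage genes downstream of IRF4 and IRF8, 8 were up-regulated at the study's threshold, where 11.3% of all genes were. The median was 0.98. Of the 8, 2 were called at an adjusted p under 0.05, where 1.34% of all genes were higher. These 2 were Prdm1, which encodes BLIMP-1 of plasma cells and effector T cells (1.76, edgeR adjusted p = 0.0437), and Id2, a factor of innate lymphoid and dendritic cells (1.68, edgeR adjusted p = 0.0331). Itgax, Cybb and Il12b had log2 fold changes of 1.15, 1.06 and 2.72, and Cst3, a dendritic cell and macrophage gene, had 0.003. With the GC content offset the lineage count was 4, where 9.43% of all genes were called, and the median 0.62 against -0.23 over all genes. The lineage count was 5 without luteolin replicate 2, where 7.52% of all genes were called, and 5 without control replicate 2.

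Of 10 genes whose products bind or regulate IRF proteins, Socs1 alone was up-regulated at the study's threshold, a share near the 11.3% of all genes, with a log2 fold change of 1.32 (standard error 0.52). The list's median was 0.36, and with the GC content offset it was 0.11 against -0.23 over all genes. The product of Socs1 is a feedback inhibitor of JAK kinases, and the call was lost without luteolin replicate 2, control replicate 2 or control replicate 3. Irf2bp2, which encodes a corepressor that binds IRF2, had 67.2, 60.5 and 58.1 CPM in the control libraries and 94.6, 113 and 100.4 CPM in the luteolin libraries (log2 fold change 0.73, standard error 0.15, edgeR adjusted p = 0.0653). Usp18 had 0.79, Def6 and Swap70, whose products bind IRF4, had 0.76 and 0.31, and Irf2bp1, which encodes another IRF2 corepressor, had -0.20.

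Keratinocyte markers moved with the high values of luteolin replicate 2. Of 11 such markers, 7 (Krt5, Krt14, Krt1, Krt15, Dsg1a, Dsg3 and Lor) had 0 counts in every control library, and Krt14 and Krt10 had 2439 and 2013 CPM in luteolin replicate 2, against 157 and 61.1 CPM in replicate 1 and 4.33 and 4.26 CPM in replicate 3. The part of their source in the IRF values was not tested. Without luteolin replicate 2 the log2 fold changes were 1.03 for Irf7, 0.99 for Irf8, 1.14 for Irf4, 0.63 for Irf2 and 0.31 for Irf5.

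**Figure D3:**
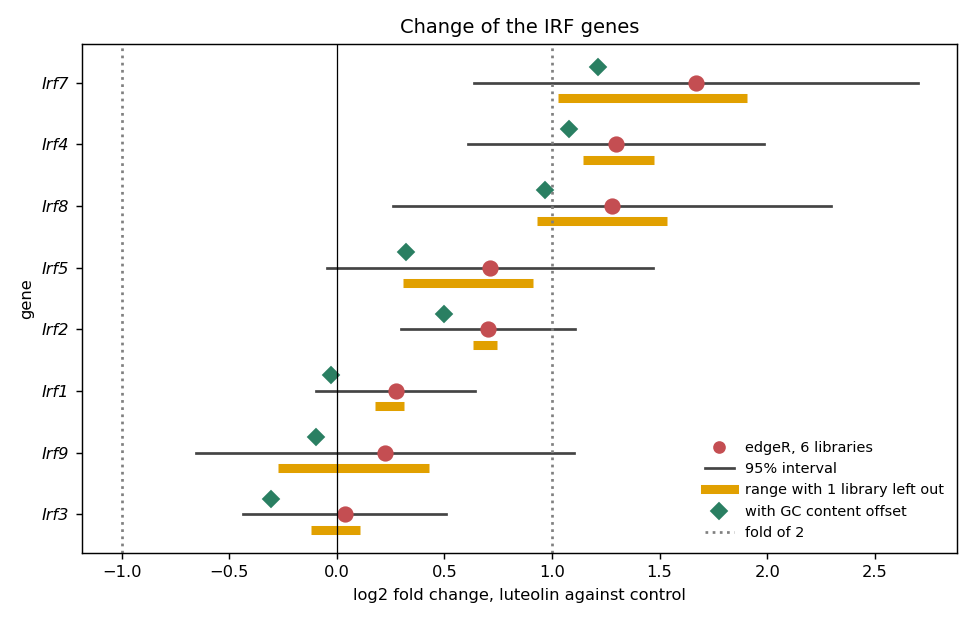
Log2 fold change (x axis, luteolin against control) of the 8 IRF genes (y axis), as red points with 95% intervals, with orange bars for the range when 1 library is left out and green diamonds for the fit with a GC content offset. Irf7, Irf4 and Irf8 lie past the dotted line at a fold of 2, and the bar of Irf4 stays past it, from 1.14 to 1.48.

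Leukocyte markers moved with these results. Ptprc, which encodes the pan-leukocyte antigen CD45, had 46.1, 56.6 and 80.6 CPM in the control libraries and 126, 148 and 134 CPM in the luteolin libraries (log2 fold change 1.16, standard error 0.23, edgeR adjusted p = 0.0638). The 5 pan-leukocyte markers together had 981 to 996 CPM in the control group and 1045 to 1209 CPM in the luteolin group. Itgb2 and Lcp1, the most abundant of them, had log2 fold changes of -0.04 and -0.26. By contrast, all 8 T cell markers lay above every control in every luteolin library, which 15.9% of all genes tested did. The same 15.9% is the background of the counts above every control given for the other lists. T cell markers summed to 11.4 to 14.7 CPM in the control group and 43.6 to 79.7 CPM in the luteolin group. Macrophage and monocyte markers summed to 997 to 1159 CPM and 1566 to 2378 CPM, with 7 of 10 above every control, and C1qa and C1qc were the most abundant. Conventional dendritic cell markers summed to 122 to 134 CPM and 189 to 285 CPM (4 of 7 above every control), and plasmacytoid dendritic cell markers to 32.9 to 37.7 CPM and 47.8 to 77.7 CPM (4 of 5). Itgax and Zbtb46 were the most abundant conventional dendritic cell markers, with log2 fold changes of 1.15 and -0.33. Tcf4 made up most of the plasmacytoid sum, with 28.5 to 32.9 CPM and 37.1 to 47.8 CPM. B cell and plasma cell markers summed to 94.8 to 125 CPM and 232 to 468 CPM (5 of 8 tested), and neutrophil markers to 46.3 to 52.4 CPM and 123 to 229 CPM (5 of 7). Of the B cell and plasma cell sum, Sdc1 gave 70.7 to 85.2 CPM in the control group and 131 to 293 CPM in the luteolin group. No marker of these 7 lists was at 0 in every control library. Their part in the IRF results was not tested.

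**Figure D4:**
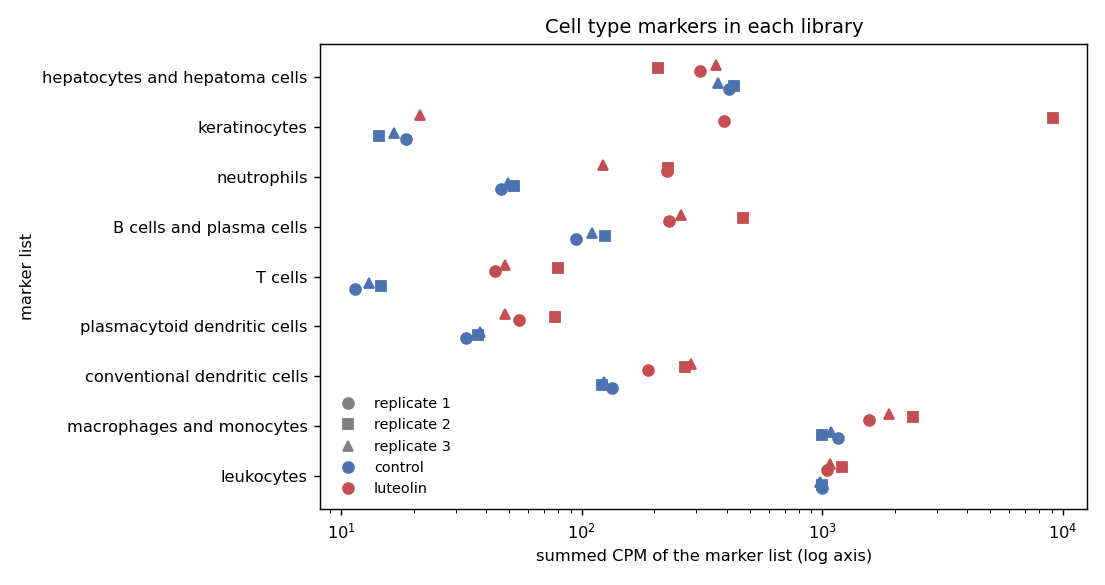
Summed CPM of each marker list (x axis, log scale) in the 3 control libraries (blue) and the 3 luteolin libraries (red), with symbols for the replicate number. In all 7 leukocyte lists the red points lie to the right of the blue ones, and the keratinocyte list spans 21.2 to 9076 CPM over the luteolin libraries.

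Set against Ptprc in the same library, 3 members, Irf1, Irf2 and Irf3, lay below every control in every luteolin library, as did 64.4% of all tested genes apart from Ptprc, and 0 members lay above every control, where 2.62% of those genes did. The luteolin libraries all had more Ptprc than any control library, so a gene at a steady CPM also falls on this ratio. The CPM of Irf1 per CPM of Ptprc was 3.89, 2.79 and 1.98 in the control libraries and 1.55, 1.55 and 1.30 in the luteolin libraries, so every luteolin library lay below every control library. Irf2 and Irf3 also lay below every control library on this ratio, with log2 differences of -0.49 and -1.17 beside the -0.92 of Irf1. For these 3 genes the two-sided exact permutation p was 0.1, below which a design of 3 against 3 cannot go. Irf4 per Ptprc was 0.0974, 0.0975 and 0.0641 in the control libraries and 0.0724, 0.103 and 0.0963 in the luteolin libraries, with a log2 difference of 0.08 (exact permutation p = 0.7). Irf7 and Irf8 had log2 differences of 0.29 and 0.18 (exact permutation p = 0.6 and 0.9), and in Irf5 and Irf9 they were -0.55 and -1.06 (exact permutation p = 0.2 for both). The groups of these 5 genes overlapped. With the sum of the 5 pan-leukocyte markers as the denominator, the log2 differences were 0.10 for Irf1, 0.54 for Irf2, 0.47 for Irf5, 1.11 for Irf4, 1.32 for Irf7 and 1.21 for Irf8, which turned the sign of Irf1, Irf2 and Irf5, and -0.14 for Irf3 and -0.03 for Irf9. On that ratio Irf2, Irf4, Irf7 and Irf8 lay above every control in every luteolin library (exact permutation p = 0.1 for each), as did 12.6% of all tested genes apart from the 5 markers, and 0 members lay below every control, where 21.4% of those genes did. The separation of Irf2 therefore took the opposite direction. On the ratio to Ptprc the signs of Irf4, Irf7 and Irf8 turned without luteolin replicate 2, to -0.02, -0.14 and -0.01, and those of Irf4 and Irf8 turned without control replicate 3, to -0.12 and -0.52.

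**Figure D5:**
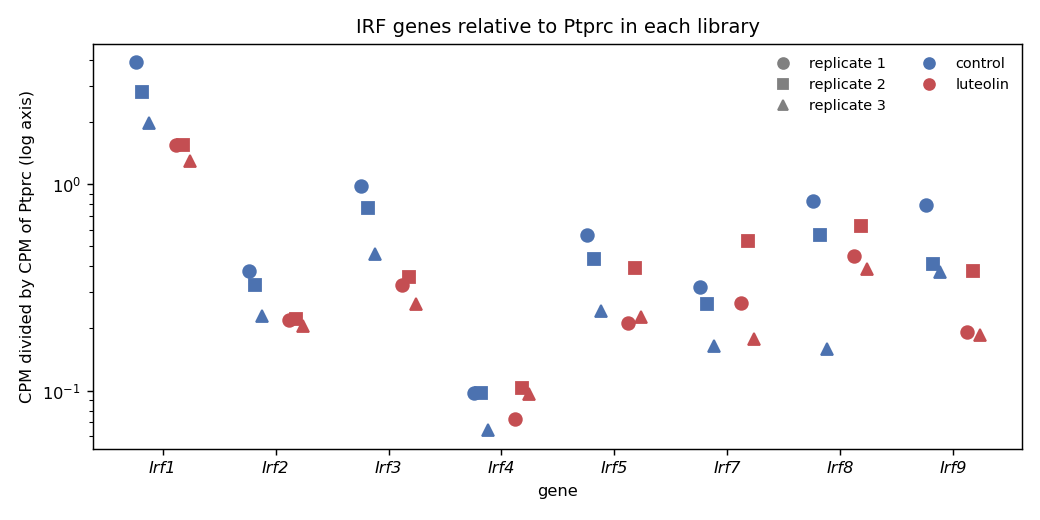
CPM of the 8 IRF genes divided by the CPM of Ptprc in the same library (y axis, log scale), with control libraries in blue, luteolin libraries in red and symbols for the replicate number. The luteolin points of Irf1, Irf2 and Irf3 lie below all control points, and in Irf4, Irf7 and Irf8 the groups overlap, with luteolin replicate 2 above every control in Irf4 and Irf7.

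Per kilobase of the longest transcript, the control levels ran in the order Irf1 (mean 77.4 CPM per kilobase), Irf3 (20.6), Irf5 (10.5), Irf8 (8.01), Irf9 (7.75), Irf2 (4.56), Irf7 (4.40) and Irf4 (1.06). In this order the ranges of Irf5 and Irf8, of Irf8 and Irf9 and of Irf2 and Irf7 overlapped, and the other neighbours were apart. The luteolin order was Irf1 (93.6 CPM per kilobase), Irf3 (21.1), Irf8 (19.4), Irf5 (17.2), Irf7 (14.0), Irf9 (9.05), Irf2 (7.43) and Irf4 (2.61). Here Irf1 and Irf4 were apart from the rest, while all other neighbours overlapped in range. Irf1 ranged from 73.8 to 84.0 CPM per kilobase in the control group and from 81.7 to 107.6 in the luteolin group. Exons of Irf1, Irf3, Irf5 and Irf7 overlap a gene on the opposite strand in GENCODE M21 (Gm17334, Bcl2l12, Tnpo3 and Phrf1), and those of Irf9 a gene on the same strand (Rnf31). Whether the counting used strand is not given in the sources used here, so shared reads make these values uncertain.

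The genes whose pattern over the 6 libraries was most like that of each member were found from centred log2 CPM, as the smallest root mean square (RMS) difference. Closest to Irf7 were Ppp1r13b (RMS difference 0.10), Icam1 (0.11) and Mark1 (0.12), all with the highest value in luteolin replicate 2. Closest to Irf8 were Socs1 (0.13), Tyrobp (0.19) and Atp8a1 (0.25), and Socs1 shared the low value of control replicate 3, with 6.08, 5.00 and 2.08 CPM in control replicates 1, 2 and 3. Irf4 lay nearest to Lrpap1 (0.12), Ankrd44 (0.12) and 9930111J21Rik1 (0.13), and Irf5 to H2-D1 (0.08), Arhgap9 (0.08) and Rgl2 (0.08). For Irf1 the nearest were L3mbtl3 and Bin3, for Irf2 Lgmn, Ubb and Mfap5, for Irf3 Dpp3, Icmt and Pcyt2, and for Irf9 Nudt17, Efr3b and Tmem204, with RMS differences of 0.03 to 0.11.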

How the data were processed

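RNA-seq data of 3 control and 3 luteolin libraries of tumour tissue were used, and 0 columns of other samples were left out. The authors deposited whole-number estimated counts per gene symbol that were not scaled between libraries. Of the values from 1 to 40, 44.8% are multiples of 4, where an even spread gives 25%, so 1 unit need not be 1 read pair. The submitters' processing notes name bcl2fastq 2.0, HISAT2, StringTie and DESeq2 and the builds mm39 and rn6, without saying which build was used for which step. The paper names Trizol and TruSeq for the libraries, where the labels name RNeasy and SMARTER kits. No coordinates were taken for the counted genes. The sums over libraries and floors cover counting error only.

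Counts were compared in R 4.3.3 with edgeR 4.0.16 (TMM, filterByExpr, quasi-likelihood test, no covariates) on all genes, with Benjamini-Hochberg adjustment of the two-sided p over the 14963 genes tested. The standard error is the log2 fold change divided by the square root of its F value, and intervals are at the 95% level. Log2 CPM used a prior count of 2. Alternatives were DESeq2 1.42.0, voom of limma 3.58.1 with sample quality weights, RLE and upper-quartile scaling, no filter, at least 10 counts in every library, values divided by 4, the replicate number as a block, an offset for GC content (natural spline, 4 degrees of freedom, available for 99.3% of tested genes) and each library left out. The scripts were tested on simulated data. Transcript lengths and GC content came from the longest GENCODE M21 transcript, in place of the RefSeq transcript first planned. Promoters came from RefSeq windows on GRCm38.p6, a build other than mm39.

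Same-numbered libraries of the groups did not deviate together (correlations -0.20, -0.09 and 0.06), so the numbers were not taken as pairs. Some genes are not reported here. Named are the 8 IRF genes, the 5 genes with the smallest p and the 1 with the largest p in each list, the 2 most abundant markers of each marker list and Ptprc, and the 3 genes with the pattern nearest to each member among genes with a mean of at least 1 CPM. Markers at 0 in every control, genes above 0 on the interferon list and genes with overlapping exons were named after their values were seen. The members and lists were chosen with earlier results of these data known.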

Additional observations from a re-analysis of the deposited data

How the results depend on the processing

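Of 341 values recomputed under an alternative, 300 were taken as holding. For a count this meant within 1.5 times the value first given (36 of these counts differed from it), for a fold change the same direction and side of the threshold, and for the ratio to Ptprc the same sign. In the others, named here, the cause was not tested. The number of IRF genes at an adjusted p under 0.05, 0 with edgeR, was 4 with DESeq2, 4 with voom and 1 with the GC content offset, and 0 with each library left out. The number up-regulated at the study's threshold, 3, was 1 with voom and 2 to 3 with 1 library left out. With voom the sensor list had 5 genes at that threshold, the receptor list 1, the cofactor list 0 and the lineage list 5, against 3, 2, 1 and 8, and with the GC content offset the receptor list had 1, the cofactor list 0 and the lineage list 4. With at least 10 counts in every library the receptor list had 1. With 1 library left out the counts ranged from 3 to 5 for sensors, 1 to 2 for receptors, 0 to 1 for cofactors, 5 to 10 for ISRE genes and 5 to 6 for lineage genes. The list of DNA-binding partners, taken as holding, had 4 genes with voom and 4 to 7 with 1 library left out, against 6. The sensor list had 5 without control replicate 3, the receptor list 1 without control replicate 1 or luteolin replicate 2, the cofactor list 0 without control replicate 2, control replicate 3 or luteolin replicate 2, the ISRE list 5 without luteolin replicate 2, and the lineage list 5 without control replicate 2 or luteolin replicate 2. The GC content offset moved the median of all genes to -0.23. It turned the log2 fold changes of Irf1 to -0.026, of Irf3 to -0.30 and of Irf9 to -0.10, which lie 0.21 above, 0.07 below and 0.14 above that median. Relative to it, Irf7, Irf4, Irf8 and Irf2 lay at 1.45, 1.31, 1.20 and 0.73. Irf4 with voom (0.91) and Irf8 with voom (0.95), the GC content offset (0.97), without control replicate 3 (0.93) or without luteolin replicate 2 (0.99) fell short of the fold of 2. Irf3 was -0.10 with voom, and with 1 library left out Irf3 ranged from -0.12 to 0.11 and Irf9 from -0.27 to 0.43. With the summed leukocyte list in place of Ptprc, the log2 differences of Irf1, Irf2 and Irf5 turned to 0.10, 0.54 and 0.47. With 1 library left out, the ratio to Ptprc ranged from -0.12 to 0.23 for Irf4, from -0.14 to 0.65 for Irf7 and from -0.52 to 0.67 for Irf8, with the lowest values of Irf4 and Irf8 without control replicate 3 and that of Irf7 without luteolin replicate 2. The replicate block gave 0 IRF genes at an adjusted p under 0.05 and 3 at the study's threshold, and as the numbers do not pair the libraries it says nothing further.

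Depth limits Irf4 most, with 314 to 357 counts in a control library, since 1 unit of the table can be less than 1 read pair. A p that misses the threshold does not show that a level did not differ.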
